A study of Mus musculus with 20 samples.

Results

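The genes described here encode the factors that direct blood vessel growth and the receptors through which endothelial cells read them. There are 10: *Vegfa*, *Vegfb*, *Kdr*, *Flt1*, *Tek*, *Angpt1*, *Angpt2*, *Apln*, *Aplnr* and *Nos3*. They were chosen by gene name among the 23420 genes counted in the mouse heart, without use of their values, and all 10 were expressed highly enough to be tested. RNA-seq had been carried out on poly(A)-selected RNA from whole hearts of 10 control mice and of 10 mice with iron-deficiency anemia (IDA mice). Every mouse was a wild type male of the strain C57BL/6 (C57BL/6J in the study's methods), 9 weeks old, that had received its diet for 6 weeks from the age of 3 weeks. The diets differed in iron, and the sources give more than 1 value for the iron left in the deficient diet. Each library came from a separate mouse. Whole heart holds cardiomyocytes, endothelial cells, fibroblasts, mural cells and blood, so a level given here is a sum over cell types.

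Endothelial cells carry the VEGF receptors KDR (VEGFR2), which drives proliferation, migration and permeability, and FLT1 (VEGFR1), which binds VEGF tightly but signals weakly and in its soluble form acts as a decoy. In the heart, VEGFA and VEGFB come largely from cardiomyocytes. The TIE2 receptor, encoded by *Tek*, is kept active by angiopoietin 1, which stabilizes vessels, and angiopoietin 2 commonly antagonizes it. Apelin is released by endothelial tip cells and acts on the apelin receptor of neighboring endothelium, and endothelial nitric oxide synthase (*Nos3*) makes the nitric oxide that relaxes vessels. Low oxygen and low iron both stabilize hypoxia-inducible factors (HIF), which are known to induce *Vegfa*, *Flt1*, *Angpt2* and *Apln* in various tissues.

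Between 6797180 and 8960688 read pairs per control mouse and between 6682177 and 7833916 per IDA mouse were counted on genes. Levels are given as CPM, the read pairs of a gene scaled to library size with edgeR's TMM factors. Of the 13590 genes tested with edgeR's quasi-likelihood test, 67.5% differed between the diets at a Benjamini-Hochberg adjusted p below 0.05, with 35.0% higher and 32.5% lower in IDA mice. Fold changes followed gene length. The median log2 fold change was 0.34 among the shortest 10% of the genes and -0.53 among the longest 10%, and each gene below is set beside the 10% of genes that share its length class. The slope of a mouse's log2 values on the log2 of exonic length lay between 0.02 and 0.20 in control mice and between -0.25 and -0.03 in IDA mice, so the groups did not overlap in this measure. Results for the 10 genes are therefore given also after removal of a smooth trend on length from every mouse (gene length correction). Whether the trend is technical or biological was not tested.

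Against this background, 6 of the 10 genes differed between the diets, a share close to that of all tested genes. *Vegfb* and *Nos3* were higher, *Kdr*, *Flt1*, *Tek* and *Angpt1* were lower, and *Vegfa*, *Angpt2*, *Apln* and *Aplnr* did not pass the test. The median log2 fold change of the 10 genes was -0.11, and that of all tested genes 0.02. After the gene length correction, by which 55.0% of tested genes differed (31.5% higher and 23.5% lower), *Vegfa*, *Apln* and *Nos3* were higher, *Flt1* and *Angpt1* were lower, and the median was 0.02. *Flt1*, *Angpt1* and *Nos3* were called in the same direction by both fits. At p below 0.01 in both edgeR and DESeq2, which 59.8% of tested genes passed, 1 gene was higher and 4 were lower. None of the 10 genes had CPM ranges that did not overlap between the groups, as 11.3% of tested genes did.

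**Figure D1:**
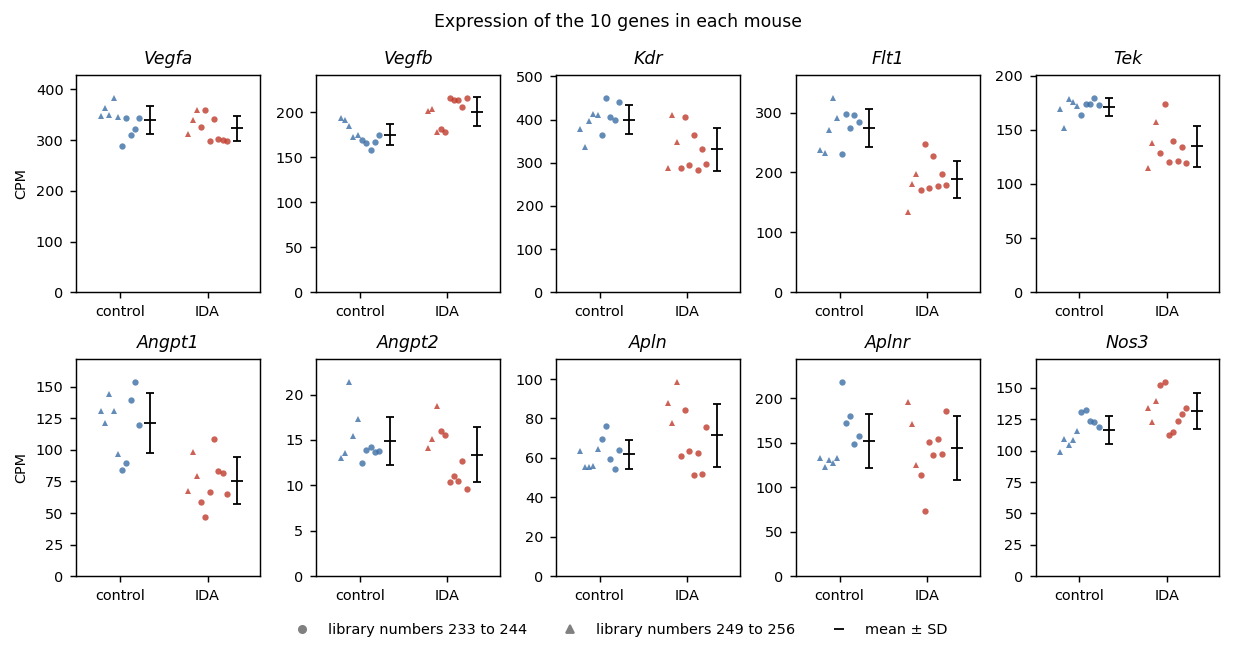
Level of each of the 10 genes in every mouse (CPM, linear axis from 0) for the 10 control and 10 IDA mice, with mean and SD beside each group. Circles are the lower and triangles the higher run of library numbers. For *Flt1*, 9 IDA mice lie below every control mouse, and for *Angpt1* and *Tek* 8 do.

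Expressed per kilobase of exon, *Vegfb* had the highest level of the 10 genes in control hearts, 137 ± 8.92 CPM per kb (SD, n = 10), and was above *Vegfa* in all 10 mice. *Vegfa* followed with 81.4 ± 6.49 and *Kdr* with 73.3 ± 6.23 CPM per kb, an order held by 8 of 10 mice. *Flt1* (43.6 ± 5.04), *Aplnr* (42.7 ± 8.48) and *Tek* (36.8 ± 1.78 CPM per kb) lay close together, and *Flt1* exceeded *Aplnr* in 7 of 10 control mice. *Angpt1* (29.7 ± 5.83) and *Nos3* (28.3 ± 2.69 CPM per kb) overlapped as well. *Apln* had 19.6 ± 2.28 and *Angpt2* 4.18 ± 0.75 CPM per kb, and each was below its neighbor in all 10 control mice. In IDA hearts the top 3 were in the same order, with 157 ± 12.2 CPM per kb for *Vegfb*. *Nos3* had 32.0 ± 3.44 CPM per kb, against 30.0 ± 5.02 for *Flt1* and 29.0 ± 4.02 for *Tek*, and these neighbors were not separated by more than their spread. *Angpt1*, at 18.5 ± 4.52 CPM per kb, was below *Apln* (22.7 ± 5.03) in 7 of 10 IDA mice, whereas in control hearts it had the higher mean.

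*Vegfa*, the main angiogenic ligand, is on chromosome 17 of mm10 from 46016993 to 46032377, with 4174 bp of exon in 8 intervals. In control hearts it ranged from 287 to 383 CPM with a median of 344, and in IDA hearts from 298 to 360 with a median of 319. The ranges overlapped almost fully, and 7 of 10 IDA mice were below the control mean. Its log2 fold change of -0.07 did not pass the test (standard error 0.05, edgeR adjusted p = 0.23, where adjustment is over the 13590 tested genes). Genes of its length class had a median of -0.20. The gene length correction turned the value to 0.14 (adjusted p = 0.0145), and a correction for length and GC content together, chosen after the data were seen, gave -0.02 (adjusted p = 0.82). The direction of the *Vegfa* difference changed with the scaling.

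*Vegfb*, a ligand of FLT1 linked to fatty acid uptake and coronary growth, is on chromosome 19 from 6982472 to 6987651 and has only 1282 bp of exon. Control mice had between 158 and 194 CPM with a median of 174, and IDA mice between 178 and 216 with a median of 205. The control mean was exceeded by all 10 IDA mice and the highest control mouse by 7, unlike for *Vegfa*. The log2 fold change was 0.20 (standard error 0.05, edgeR adjusted p = 0.000761), but it was -0.05 with the gene length correction (adjusted p = 0.40) and -0.25 with the correction for length and GC content (adjusted p = 0.00076). Its length class, that of short genes, had a median log2 fold change of 0.27. Counts of *Vegfb* reached 1.19 read pairs per exonic base, where, among genes with 200 or more bases of exon, the top gene of each mouse reached between 2.06 and 2.39, in data from which the authors had removed PCR duplicates. The part of this ceiling in the difference was not tested.

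The VEGF receptors were both lower in IDA hearts. *Flt1*, on chromosome 5 from 147562196 to 147725988 with 6280 bp of exon, ranged from 230 to 325 CPM with a median of 279 in control mice and from 133 to 247 with a median of 180 in IDA mice. All 10 IDA mice were below the control mean, and the groups overlapped through 1 IDA mouse. Its level fell to 0.69 of the control level (log2 fold change -0.54, standard error 0.08, edgeR adjusted p = 8.64e-06). The decrease was also found with the gene length correction (-0.14, adjusted p = 0.0205) and with the correction for length and GC content (-0.14, adjusted p = 0.0193). *Flt1* differed in all 15 alternative fits, among which these corrections gave the smallest change, and the median of the genes in its length class was -0.32.

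*Kdr*, also on chromosome 5 (75933270 to 75978428, 5451 bp of exon), ranged from 336 to 450 CPM with a median of 403 in control mice and from 283 to 410 with a median of 314 in IDA mice. Of the IDA mice, 8 were below the control mean and 6 below the lowest control mouse. The log2 fold change of -0.27 (standard error 0.07, edgeR adjusted p = 0.00183) was close to the median of its length class, -0.32, and became 0.06 with the gene length correction (adjusted p = 0.33). With the correction for length and GC content it was 0.11 (adjusted p = 0.053), and neither correction called *Kdr*.

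*Tek*, the angiopoietin receptor, on chromosome 4 from 94739300 to 94874939 with 4654 bp of exon, had the narrowest relative spread in control hearts (coefficient of variation 4.84%), from 152 to 180 CPM with a median of 173. IDA mice ranged from 115 to 174 with a median of 131, and 8 of them were below the lowest control mouse. Its log2 fold change was -0.34 (standard error 0.06, edgeR adjusted p = 4.05e-05), where genes of its length class had a median of -0.20. The gene length correction gave -0.09 (adjusted p = 0.080) and with length and GC content -0.02 (adjusted p = 0.75), so the call on *Tek* was lost while the sign was kept.

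Because the 3 receptor genes were lower together in IDA mice without the gene length correction, their upstream sequence is shown. That of *Vegfa*, the ligand whose level did not pass the test without it, is shown as well. With the correction, only *Flt1* of the 3 receptor genes was still called lower. RefSeq start sites on GRCm38.p6 were available for 6 of the 10 genes. Each line gives the 250 bases before the start site, 5′ to 3′ on the gene's strand. Capitals mark the letters searched for on both strands: the cores of hypoxia response elements (ACGTG and GCGTG), the E-box (CACGTG, which contains the former core), the GC box (GGGCGG), the TATA box (TATAAA) and sites of ETS factors (CCGGAA and CAGGAA), which are prominent in endothelial promoters. The windows were chr5:75978456-75978705 on the minus strand for *Kdr*, chr5:147726012-147726261 on the minus strand for *Flt1*, chr4:94739039-94739288 on the plus strand for *Tek* and chr17:46032378-46032627 on the minus strand for *Vegfa*.
Kdr: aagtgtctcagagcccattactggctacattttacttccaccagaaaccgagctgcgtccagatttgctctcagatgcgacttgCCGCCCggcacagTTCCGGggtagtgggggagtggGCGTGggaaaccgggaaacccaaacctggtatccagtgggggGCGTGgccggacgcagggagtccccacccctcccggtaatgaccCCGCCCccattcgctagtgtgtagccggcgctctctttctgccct
Flt1: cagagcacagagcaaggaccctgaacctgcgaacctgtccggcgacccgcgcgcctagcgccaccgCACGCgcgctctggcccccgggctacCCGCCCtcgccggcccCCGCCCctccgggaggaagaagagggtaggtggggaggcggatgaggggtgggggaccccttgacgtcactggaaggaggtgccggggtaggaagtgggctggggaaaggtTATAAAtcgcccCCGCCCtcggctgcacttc
Tek: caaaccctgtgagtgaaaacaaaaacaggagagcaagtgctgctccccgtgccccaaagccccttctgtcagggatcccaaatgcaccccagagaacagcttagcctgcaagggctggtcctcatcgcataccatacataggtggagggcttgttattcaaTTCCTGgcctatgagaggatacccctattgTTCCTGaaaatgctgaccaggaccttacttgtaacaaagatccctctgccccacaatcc
Vegfa: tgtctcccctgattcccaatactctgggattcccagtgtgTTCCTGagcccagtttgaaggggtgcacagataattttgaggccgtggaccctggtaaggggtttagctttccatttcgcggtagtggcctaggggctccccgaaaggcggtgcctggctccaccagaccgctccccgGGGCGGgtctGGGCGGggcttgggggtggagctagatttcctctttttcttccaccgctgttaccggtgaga

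The hypoxia core GCGTG was present in *Kdr* from 131 to 127 and from 89 to 85 bases before the start, and in *Flt1*, on the opposite strand, from 184 to 180. Neither core was found in the *Tek* window or in this *Vegfa* window, which says nothing about elements further away. RefSeq lists a further *Vegfa* start site inside the counted gene, 7214 bases from its 5′ end. The window before that start (chr17:46025164-46025413, minus strand, not printed) therefore lies within *Vegfa* and not upstream of it. It held both cores, GCGTG from 218 to 214 and ACGTG on the opposite strand from 211 to 207 bases before that start, and 1 GC box. Of 32851 windows of the same length, 38.6% held either core, so its presence does not set *Kdr* and *Flt1* apart. GC boxes were found at 2 positions in *Kdr*, 3 in *Flt1*, 2 in *Vegfa* and 0 in *Tek* (32.7% of windows held at least 1). *Tek* held 2 sites CAGGAA, *Vegfa* 1, *Kdr* 1 site CCGGAA and *Flt1* 0 of either, against 35.1% of windows with either. *Flt1* alone of these windows held a TATA box, from 31 to 26 bases before its start (12.4% of windows).

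**Figure D2:**
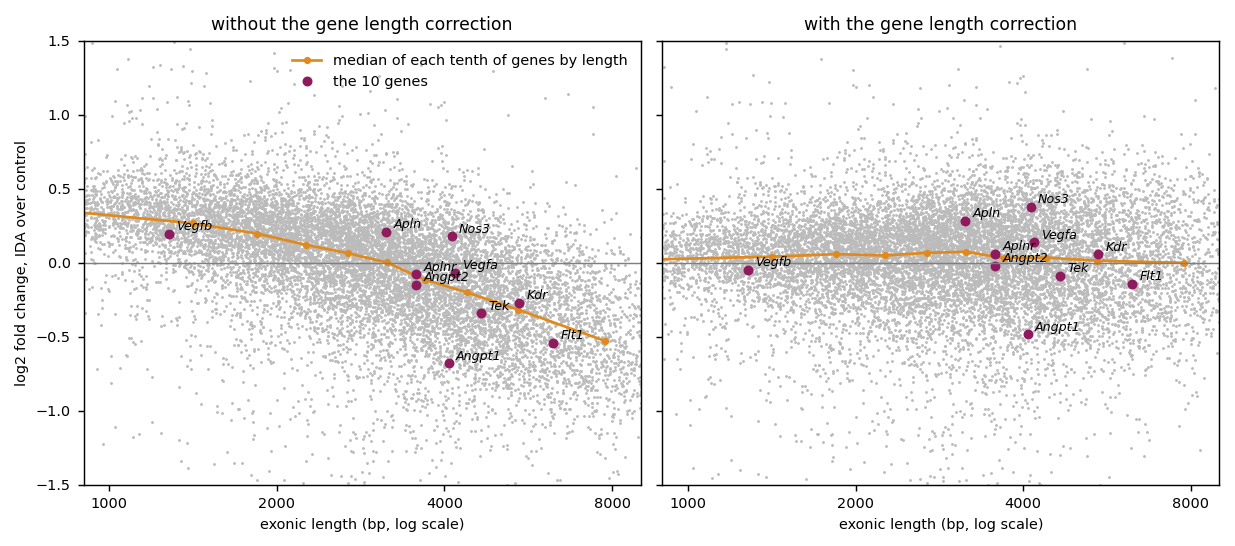
Log2 fold change (IDA over control) of the 13590 tested genes against exonic length (bp, log axis), without (left) and with (right) the gene length correction; genes outside the plotted range are not drawn. Grey points are genes, the line joins the medians of the 10 length classes, and larger points are the 10 genes. On the left, *Kdr* (-0.27) lies near the line and *Angpt1* (-0.68) and *Nos3* (0.18) stand off it to either side; on the right, *Kdr* is at 0.06 and *Angpt1* at -0.49.

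*Angpt1*, the activating ligand of TIE2, showed the largest difference of the 10 genes. It is on chromosome 15 from 42424725 to 42676795, with 4076 bp of exon. Control mice ranged from 83.9 to 154 CPM with a median of 126, and IDA mice from 47.0 to 109 with a median of 73.3. All 10 IDA mice were below the control mean and 8 below the lowest control mouse. The level fell to 0.62 of that in control hearts (log2 fold change -0.68, standard error 0.13, edgeR adjusted p = 8.46e-05). Genes in its length class had a median of -0.20, and the gene length correction left a decrease of *Angpt1* of -0.49 (adjusted p = 0.00216). With length and GC content together the value was -0.23 and the call was lost (adjusted p = 0.11). Reads were counted without strand, and in the GENCODE annotation 555 bases of its exons overlap those of the opposite-strand gene *Gm17473*, from whose reads they cannot be told apart.

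*Angpt2*, on chromosome 8 from 18690263 to 18741562, was the least abundant of the genes, with between 65 and 151 read pairs per mouse. It ranged from 12.5 to 21.4 CPM with a median of 13.8 in control mice and from 9.58 to 18.8 with a median of 13.4 in IDA mice. The groups overlapped widely (log2 fold change -0.15, standard error 0.12, edgeR adjusted p = 0.28), and no alternative called a difference, with adjusted p from 0.0898 to 0.92. The median of its length class was -0.12.

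The balance of the angiopoietins within a mouse was compared directly. The log2 ratio of *Angpt2* to *Angpt1* was -2.99 ± 0.33 in control mice (SD, n = 10) and -2.47 ± 0.52 in IDA mice. It was higher in 9 of 10 IDA mice than the control mean, by 0.52 (two-sided permutation test, p = 0.0158, adjusted over 5 ratios p = 0.0197). The gene length correction left a difference of 0.46, which did not pass (permutation test, adjusted p = 0.0504). The numerator did not pass its own test, and the denominator is the gene that fell.

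*Apln*, the apelin ligand, on chromosome X from 48025146 to 48034852, ranged from 54.2 to 76.1 CPM with a median of 61.4 in control mice and from 51.6 to 98.5 with a median of 69.7 in IDA mice. Its SD in IDA mice (15.8 CPM) was above that in control mice (7.18 CPM), and 4 IDA mice exceeded the highest control mouse while 2 were below the lowest. The log2 fold change of 0.21 did not pass the test (standard error 0.10, edgeR adjusted p = 0.0782), but 0.28 did with the gene length correction (adjusted p = 0.0237), and 0.24 with length and GC content did not (adjusted p = 0.054). The median of its length class was 0.0009.

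*Aplnr*, its receptor, a single-exon gene on chromosome 2 from 85136360 to 85139923, ranged from 123 to 218 CPM with a median of 141 in control mice and from 73.1 to 196 with a median of 144 in IDA mice. The groups did not differ by more than their spread (log2 fold change -0.08, standard error 0.13, edgeR adjusted p = 0.61), and the sign turned with the gene length correction (0.06, adjusted p = 0.75). The median of its length class was -0.12. The log2 ratio of *Apln* to *Aplnr* was -1.28 ± 0.21 in control and -0.997 ± 0.53 in IDA mice, a difference of 0.28 that did not pass the test (permutation test, adjusted over 5 ratios p = 0.138).

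Values of the apelin genes varied with the numbers of the libraries. The numbers in the column headers fall into a lower run, with 5 control and 7 IDA mice, and a higher run, with 5 control and 3 IDA mice. What a run stands for is not given, and sequencing took place in 2 units. In the lower run, *Apln* had 64.7 ± 8.57 CPM in control and 64.3 ± 12.0 in IDA mice, a log2 fold change of -0.01 (edgeR adjusted p = 0.96). In the higher run, it had 58.9 ± 4.64 CPM in control and 88.0 ± 10.4 in IDA mice, and the 3 IDA mice (77.8, 87.6 and 98.5 CPM) were above all 5 control mice (log2 fold change 0.57, edgeR adjusted p = 0.00282). *Aplnr* was 175 ± 27.0 and 136 ± 35.3 CPM in the lower run (log2 fold change -0.37, edgeR adjusted p = 0.0723) and 129 ± 4.44 and 164 ± 36.1 in the higher (0.32, edgeR adjusted p = 0.0367). The difference between runs was -0.59 for *Apln* (p = 0.00295) and -0.70 for *Aplnr* (p = 0.0089), and neither passed the test after adjustment over all genes (edgeR adjusted p = 0.37 and 0.60), as only 0.206% of genes did.

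All other genes gave the same sign in both runs, in which 58.9% and 43.5% of tested genes were called. *Flt1* changed by -0.50 in the lower (edgeR adjusted p = 0.000584) and by -0.69 in the higher (edgeR adjusted p = 0.00448), *Angpt1* by -0.69 and -0.63, and *Tek* by -0.37 and -0.32, and each was called in both. *Kdr* was called in the lower run alone (-0.35 and -0.17), as was *Vegfb* (0.28 and 0.07), and *Nos3* in the higher alone (0.07 and 0.28). For these 3 genes the interaction of diet and run had edgeR adjusted p of 0.94, 0.77 and 0.81, so a difference between the runs was not shown.

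**Figure D3:**
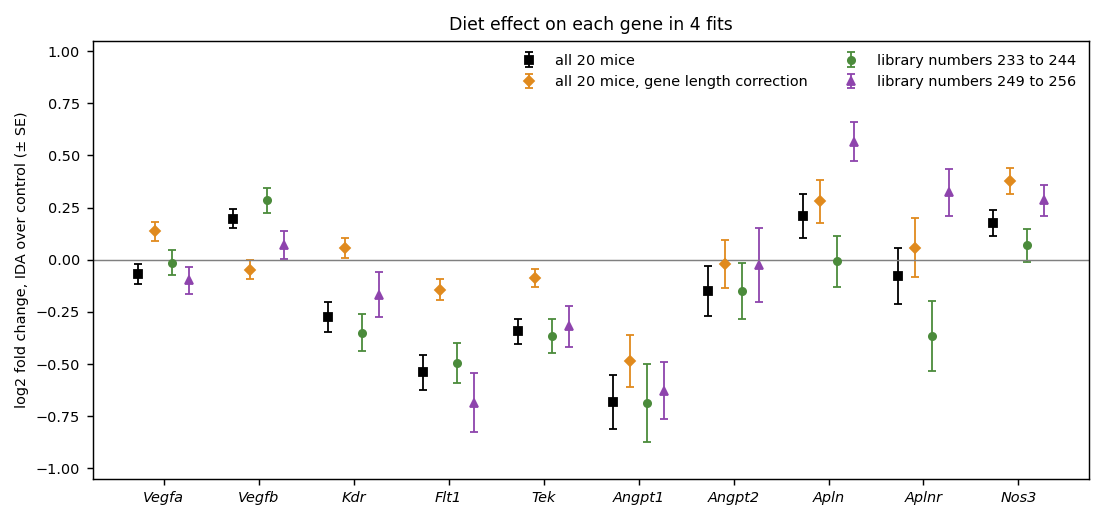
Log2 fold change (IDA over control, ± standard error, edgeR) of each gene in 4 fits: all 20 mice, all 20 mice with the gene length correction, and the mice of each run of library numbers alone. *Flt1* and *Angpt1* lie below 0 in each of these fits and *Nos3* above 0, while *Apln* is at -0.01 in one run and 0.57 in the other.

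*Nos3*, endothelial nitric oxide synthase, on chromosome 5 from 24364819 to 24384474 with 4123 bp of exon, ranged from 99.3 to 133 CPM with a median of 117 in control mice and from 113 to 155 with a median of 132 in IDA mice. Of the IDA mice, 8 were above the control mean and 5 above the highest control mouse. The log2 fold change was 0.18 (standard error 0.06, edgeR adjusted p = 0.0148), although the median in its length class was -0.20. It was 0.38 with the gene length correction (adjusted p = 2.38e-05), and with length and GC content it was 0.16 (adjusted p = 0.0155). The call was lost in 11 of 100 fits that left out 1 mouse of each group, 10 of which left out IDA mouse 4 or IDA mouse 5, the highest for this gene, and the log2 fold change then reached as low as 0.13. Its exons share 294 bases with *Atg9b* and 1040 with *Gm15587* on the opposite strand, whose reads cannot be told apart from its own.

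Most of these genes are transcribed in endothelium, and in RNA from whole tissue fewer endothelial cells and less RNA per cell cannot be told apart. Levels of 18 endothelial markers, such as *Pecam1*, *Cdh5* and *Cldn5*, were therefore set beside them. All 18 were detected, and 12 were higher and 2 lower in IDA hearts, against 35.0% and 32.5% of all tested genes. The median log2 fold change of the markers was 0.24 (0.26 with the gene length correction). Their summed level was between 2124 and 2427 CPM in control and between 2460 and 2816 CPM in IDA mice, without overlap. Among them, the tight junction gene *Cldn5* (0.80, edgeR adjusted p = 4.73e-07), *Vwf*, the clotting factor stored by endothelial cells (0.64, adjusted p = 7.72e-05), and *Ecscr* (0.58, adjusted p = 1.81e-06) rose most, and had 0.57, 1.18 and 0.30 with the gene length correction, each still called. *Erg*, an ETS factor that maintains endothelial identity, fell (-0.65, adjusted p = 4.51e-07; -0.73 with the gene length correction), and the adhesion gene *Cdh5* had -0.17 (adjusted p = 0.000345), which became 0.01 with the gene length correction. *Pecam1* had -0.01 (adjusted p = 0.78), and 0.08 with the correction, which called it (adjusted p = 0.0143).

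The mean log2 CPM of the 18 markers was 6.64 ± 0.08 in control mice and 6.87 ± 0.08 in IDA mice (SD, n = 10 each), a difference of 0.23. Each gene was then expressed relative to this mean in the same mouse and compared by a two-sided permutation test, adjusted over the 13572 tested genes outside the marker list. Relative to the markers, 58.8% of these genes differed, 51.5% lower in IDA mice and 7.28% higher, with a median of -0.22. Of the 10 genes, 6 were lower: *Vegfa*, *Kdr*, *Flt1*, *Tek*, *Angpt1* and *Angpt2*. That share is near the background. When the gene length correction was applied (58.4% differing, 52.9% lower and 5.46% higher), 5 were lower and 1 was higher.

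*Flt1* was 1.45 ± 0.20 log2 units above the marker mean in control mice and 0.67 ± 0.23 above it in IDA mice, a difference of -0.78 without overlap (p = 2e-05, the smallest that these permutations can give, adjusted p = 8.27e-05). *Tek* went from 0.78 ± 0.12 to 0.19 ± 0.17, also without overlap (-0.59, permutation test adjusted p = 8.27e-05). Among all genes, 14.8% had ranges that did not overlap. The gene length correction left differences of -0.39 for *Flt1* and -0.33 for *Tek* (permutation test adjusted p = 0.000134 for both). The median of all tested genes outside the marker list was then -0.21. Because the markers rose, a call on this scale does not show that the gene itself fell. *Kdr* went from 2.00 ± 0.14 to 1.49 ± 0.22, with 9 of 10 IDA mice below every control mouse (-0.51, permutation test adjusted p = 8.27e-05). With the gene length correction *Kdr* had -0.19 (permutation test adjusted p = 0.00931), a smaller fall than that median. For each receptor the ratio to the markers was lower in 10 of 10 IDA mice than the control mean. With the marker mean as a covariate in edgeR, *Flt1* (-0.57, adjusted p = 0.0119) and *Tek* (-0.46, adjusted p = 0.00677) were called, *Kdr* was not (-0.30, adjusted p = 0.0853), and *Angpt1* had 0.06 (adjusted p = 0.82). The marker mean did not overlap between the diets (6.51 to 6.75 in control and 6.77 to 6.99 in IDA mice). This fit therefore cannot separate the markers from diet, and no conclusion is drawn from its calls.

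*Angpt1* showed the largest relative difference, from 0.26 ± 0.36 to -0.67 ± 0.42 (-0.92, permutation test adjusted p = 0.000598; -0.73 with the gene length correction, adjusted p = 0.00165). It is made largely by cells other than endothelium, so for this gene the marker mean is only a common scale. *Nos3* followed the markers, at 0.22 ± 0.09 in control and 0.16 ± 0.10 in IDA mice (-0.06, permutation test adjusted p = 0.26), but turned to 0.14 with the gene length correction (adjusted p = 0.0135). *Apln* (-0.05, adjusted p = 0.71) and *Vegfb* (-0.04, adjusted p = 0.66) did not pass the permutation test either, and *Vegfb* had -0.29 with the gene length correction (adjusted p = 0.0015). *Vegfa* had -0.30 (adjusted p = 0.00125), which was -0.10 with the gene length correction and no longer called (permutation test adjusted p = 0.178). *Angpt2* had -0.40 (adjusted p = 0.0102; -0.28 and adjusted p = 0.0615 with the correction) and *Aplnr* -0.33 (permutation test adjusted p = 0.0705).

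**Figure D4:**
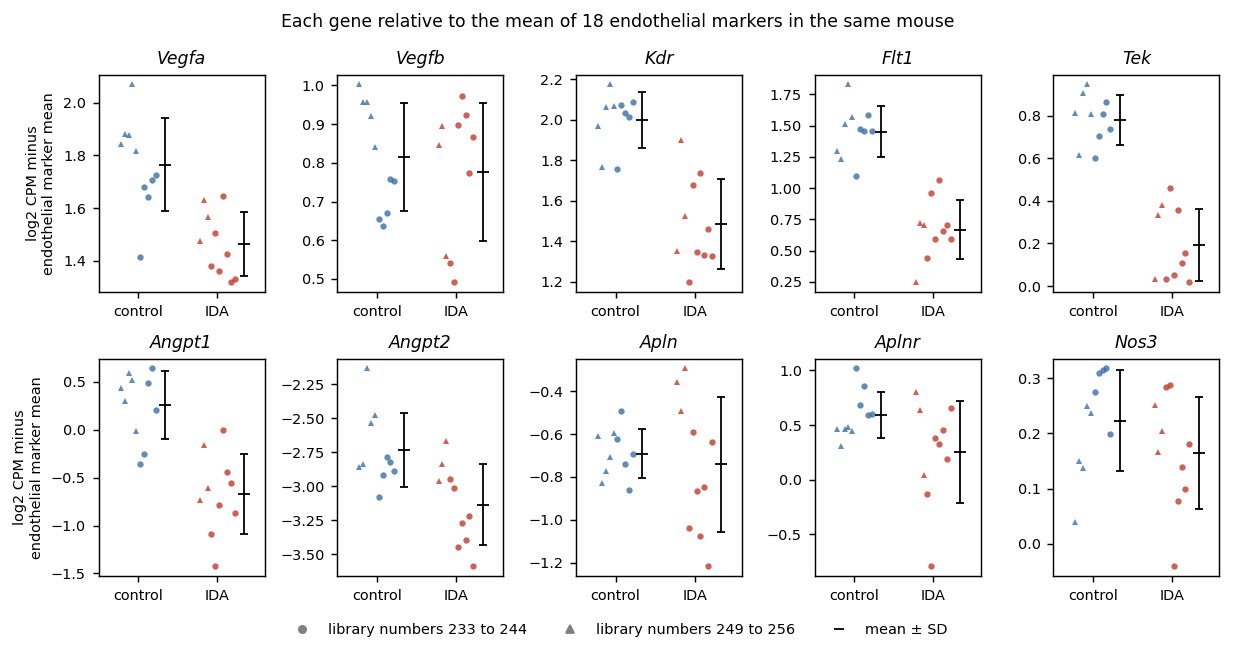
Log2 CPM of each gene minus the mean log2 CPM of the 18 endothelial markers in the same mouse (log2 units, axes differ between panels) for the 10 control and 10 IDA mice, with mean and SD. Circles and triangles mark the runs of library numbers. For *Flt1* and *Tek* every IDA mouse lies below every control mouse, while *Nos3* and *Vegfb* overlap.

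The receptors did not change in proportion to each other. The log2 ratio of *Kdr* to *Flt1* was 0.55 ± 0.10 in control mice, within 0.34 to 0.68, and 0.82 ± 0.18 in IDA mice, within 0.67 to 1.18. Each of the 10 IDA mice exceeded the control mean and 8 the highest control mouse (difference 0.27, permutation test p = 4e-05, adjusted over 5 ratios p = 0.0002). The difference was 0.20 with the gene length correction (permutation test adjusted p = 0.002), 0.14 in the lower run of library numbers and 0.52 in the higher. The genes have similar exonic lengths, 5451 and 6280 bp.

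Ratios of ligands differed more with the scaling. The log2 ratio of *Vegfa* to *Vegfb* was 0.95 ± 0.11 in control and 0.69 ± 0.21 in IDA mice (difference -0.26, permutation test adjusted p = 0.008), and the gene length correction turned it to 0.19 (permutation test adjusted p = 0.0171). The log2 ratio of *Vegfa* to its receptor *Kdr* was -0.23 ± 0.16 in control and -0.02 ± 0.14 in IDA mice (difference 0.21, higher in 9 of 10 IDA mice than the control mean, permutation test adjusted p = 0.0118), and 0.09 with the gene length correction (permutation test adjusted p = 0.225).

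**Figure D5:**
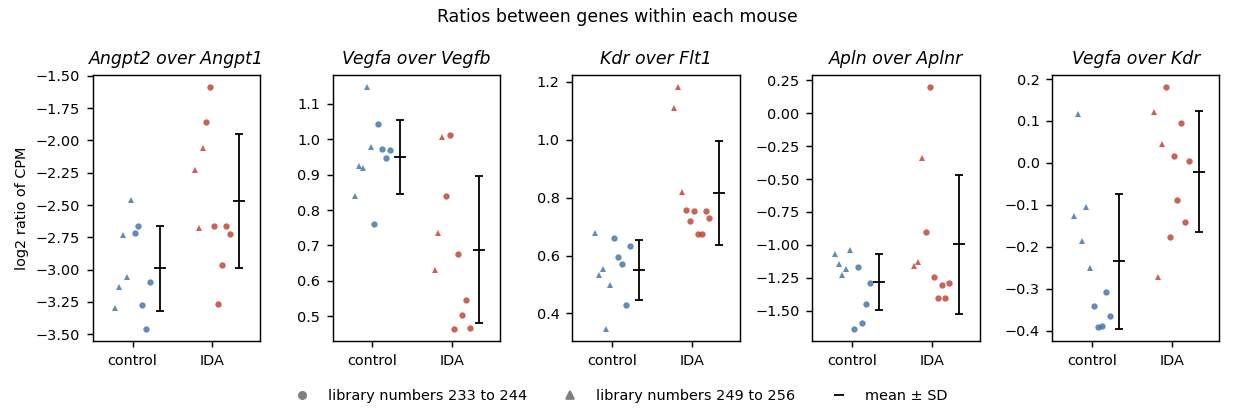
Log2 ratio of CPM between pairs of the genes within each mouse (axes differ between panels) for the 10 control and 10 IDA mice, with mean and SD, circles and triangles marking the runs of library numbers. *Kdr* over *Flt1* was above the highest control mouse in 8 IDA mice; *Vegfa* over *Vegfb* turns from a difference of -0.26 to 0.19 with the gene length correction, which is not drawn.

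Among mice on the same diet, *Nos3* varied with the endothelial markers. Its log2 CPM had a Pearson's r with the marker mean of 0.79 in control mice (Spearman's rho = 0.85) and 0.81 in IDA mice (rho = 0.81), each with a permutation p adjusted over 20 relations of 0.0338 for r and 0.0543 for rho. Without the 2 mice farthest from the median marker level, r was 0.56 and 0.66. With the gene length correction, r of *Nos3* was 0.88 in control mice (permutation adjusted p = 0.027) and 0.70 in IDA mice, where it no longer passed (permutation adjusted p = 0.0909). *Angpt1* varied the opposite way in IDA mice (r = -0.79, adjusted p = 0.0338; rho = -0.78, adjusted p = 0.0543; r = -0.57 without 2 mice, permutation tests) and had r = -0.69 in control mice (rho = -0.62, permutation adjusted p = 0.0688 and 0.169), which was -0.19 without 2 mice. *Apln* (r = 0.77, rho = 0.55, r = 0.45 without 2 mice) and *Aplnr* (r = 0.80, rho = 0.78, r = 0.58 without 2 mice) rose with the markers in control mice, both with a permutation p adjusted to 0.0338 for r, and with 0.23 and 0.0543 for rho. In IDA mice, *Aplnr* had r = -0.71 (rho = -0.65, permutation adjusted p = 0.055 and 0.169; r = -0.76 without 2 mice) and *Apln* 0.18.

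Within a run of library numbers, these relations could be computed only for the 7 IDA mice of the lower run. These mice are part of the IDA group above, so this is not an independent test. There, *Nos3* had r = 0.88 and rho = 0.86 (exact permutation p = 0.0127 and 0.0238) and *Angpt1* r = -0.87 and rho = -0.89 (exact permutation p = 0.0119 and 0.0123). The groups of 5, 5 and 3 mice were too small, so the relations in control mice cannot be told apart from a difference between runs. Over all mice of each diet, *Kdr*, *Flt1* and *Tek* had r between -0.30 and 0.44 with the markers, and between -0.21 and 0.57 with the gene length correction. None of their permutation p passed the threshold after adjustment in either setting.

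By residuals around the diet means after the gene length correction, the gene most like *Nos3* over the 20 mice was *Mmrn2* (r = 0.90), itself among the endothelial markers, and then *Sfpi1* (0.90). For *Tek* they were *Phactr4* (0.91) and *Akap12* (0.89), for *Flt1* *Wasf2* (0.88) and *Mertk* (0.83), for *Kdr* *Etv3* (0.82) and *Znrf3* (0.82), and for *Aplnr* *Pcdh12* (0.88), an endothelial protocadherin, and *Akap5* (0.87). *Vegfb* was matched most closely, by *Map1lc3a* and *Ndufs8* (r = 0.98 for both). *Vegfa* was nearest to *Gtf2h1* (0.82) and *Frmd5* (0.79), *Angpt1* to *Kcnj5* (0.79) and *Zfp942* (0.75), *Angpt2* to *Otud1* (0.84) and *Serp1* (0.80), and *Apln* to *Sfmbt1* (0.82) and *Pvrl4* (0.77). These correlations share libraries and depth and were the highest of 13590 genes, so they describe these mice only. Among the 10 genes themselves, the strongest were between *Vegfb* and *Nos3* (r = -0.83) and between *Angpt1* and *Nos3* (r = -0.71).

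The counts in the lists that follow stand beside 35.0% of all tested genes higher and 32.5% lower in IDA mice. With the gene length correction these shares were 31.5% and 23.5%. Of 10 further genes of the VEGF family and its co-receptors, 1 was higher and 6 were lower (median -0.19), but 4 were higher and 1 lower with the gene length correction. The co-receptor *Nrp2* had -0.68 (edgeR adjusted p = 2.1e-07; -0.15 and adjusted p = 0.0524 with the correction), and *Flt4*, the VEGFC receptor, had -0.34 (adjusted p = 3.79e-05), which turned to 0.03 with the correction. *Sema3c*, a semaphorin that binds neuropilins, fell under both (-0.72, adjusted p = 7.13e-07, and -0.43), and *Sema3f* rose under both (0.32, edgeR adjusted p = 0.03, and 0.42).

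Around TIE2, 2 of 6 tested partners were higher and 2 lower (4 and 1 with the gene length correction). The orphan receptor *Tie1*, which pairs with TIE2, had 0.08 (edgeR adjusted p = 0.0427; 0.26 with the correction), whereas *Ptprb*, the phosphatase VE-PTP that restrains TIE2, had -0.61 (adjusted p = 4.07e-06), which turned to 0.06 with the correction. *Angptl4*, a lipoprotein lipase inhibitor and HIF target, rose from 56.2 ± 23.9 to 102 ± 31.8 CPM (0.85, edgeR adjusted p = 0.0028; 0.71 with the correction), and *Angptl1* fell (-0.50, adjusted p = 0.0158; -0.59 with the correction). Of 3 tested genes around apelin, *Agtr1a*, the angiotensin receptor, was lower (-0.37, edgeR adjusted p = 0.000186; -0.44 with the correction), and the others were not called without the correction. With it, 1 of the 3 was higher and 1 lower.

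Along the nitric oxide pathway, 8 of 17 tested genes were higher and 8 lower (7 and 7 with the gene length correction). *Gch1*, the first enzyme of the synthesis of its cofactor tetrahydrobiopterin, rose by 0.50 (edgeR adjusted p = 2.06e-06), *Ddah2*, which degrades an inhibitor of the synthase, by 0.62 (adjusted p = 4.65e-07), and *Nostrin*, which traffics it, by 0.74 (adjusted p = 5.5e-06). The inducible synthase *Nos2* fell by 0.81 on the log2 scale (edgeR adjusted p = 5.53e-07). *Prkg1*, the kinase activated by cGMP, fell by 0.98 (adjusted p = 1.71e-07) and *Gucy1a2*, a subunit of the nitric oxide receptor guanylyl cyclase, from 26.4 to 9.32 CPM (edgeR adjusted p = 1.65e-07). *Gucy1a2* and *Prkg1* have long exons (13723 and 7378 bp) and had -0.76 and -0.50 with the gene length correction, and each of these 6 genes was still called in its direction with it.

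Of 13 genes of Notch signaling and of tip and stalk cells, 2 were higher and 5 lower (5 and 2 with the gene length correction). *Jag1* (-0.56, edgeR adjusted p = 1.83e-05), *Hey2* (-0.49, adjusted p = 0.00251) and *Dll1* (-0.35, adjusted p = 0.00565) were lower, and *Hey1* (0.48, adjusted p = 0.00012) and the endothelial receptor *Notch4* (0.19, adjusted p = 0.0482) higher. With the correction *Jag1* had -0.22, *Hey2* -0.51, *Hey1* 0.40 and *Notch4* 0.62, each still called, and *Dll1* -0.24, no longer called (edgeR adjusted p = 0.0538). Signaling genes downstream of VEGF and TIE2 split into 5 higher and 10 lower of 19, and into 11 and 3 with the correction. *Pik3r1*, the regulatory subunit of PI3 kinase, had -0.78 (edgeR adjusted p = 6.69e-05; -0.30 with the correction). The kinase gene *Prkca* had -0.62, which shrank to -0.08 with the correction and was no longer called (adjusted p = 0.23). The adaptors *Dok2* (0.57) and *Shb* (0.45) and the calcineurin target *Rcan1* (0.32) were higher, and had 0.40, 0.46 and 0.29 with the correction, each still called.

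Among 30 other angiogenic ligands and receptors, 8 were higher and 10 lower (9 and 9 with the gene length correction). *Fgf2* had 3.02 ± 0.93 CPM in control and 0.76 ± 0.42 CPM in IDA mice (-1.99, edgeR adjusted p = 1.02e-06) and *Hgf* 1.62 ± 0.54 and 0.52 ± 0.37 CPM (-1.60, adjusted p = 6.3e-05), both at the low end of what was tested. *Thbs2*, an inhibitor of angiogenesis, fell by 0.80 (adjusted p = 2.37e-07). *Ramp3*, which makes a receptor for adrenomedullin, rose from 14.7 ± 1.95 to 30.2 ± 6.10 CPM (1.04, edgeR adjusted p = 1.83e-07), with *Tgfb1* (0.47) and its endothelial receptor *Acvrl1* (0.43) also higher. All 6 kept direction and call with the correction.

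HIF targets outside the 10 genes were set beside *Vegfa* as a list for comparison. Of 20, 11 were higher and 4 lower (median 0.19), and 12 higher and 1 lower with the gene length correction (median 0.16). The largest were *Ankrd37* (0.99, edgeR adjusted p = 2.63e-07), *Egln3*, an oxygen sensor that HIF induces (0.74, adjusted p = 1.45e-07), and *Ndufa4l2* (0.60, adjusted p = 1.65e-07), against -0.07 for *Vegfa*. With the correction these genes had 0.69, 0.74 and 0.30, and *Vegfa*, then called, had 0.14, close to the median of the list. *Pfkfb3* fell (-0.72, edgeR adjusted p = 0.000186; -0.40 with the correction), and *Kdm3a* (-0.16) and *Hk2* (-0.17) were lower without the correction and higher with it (0.12 and 0.17).

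Markers of other cells gave the following. Of 10 cardiomyocyte markers, 5 were higher and 1 lower (2 and 7 with the gene length correction), of 8 fibroblast markers 3 and 1 (3 and 2), of 9 mural cell markers 2 and 4 (3 and 2), of 8 macrophage markers 5 and 1 (3 and 0), of 4 tested lymphatic markers 1 and 3 (0 and 2), and of 4 endocardial markers 2 and 0 (2 and 0). Summed mural markers were between 1735 and 2038 CPM in control and between 1307 and 1899 CPM in IDA mice. Of 14 erythroid markers, 10 were in the file and 4 passed the expression filter, 3 of them higher, and 3 of the 10 were at 0 in every mouse. Their sum was between 109 and 169 CPM in control and between 163 and 607 CPM in IDA mice. With an erythroid marker covariate, *Flt1*, *Kdr* and *Tek* were still lower (-0.70, -0.49 and -0.48), and *Nos3* had 0.13 and was no longer called (edgeR adjusted p = 0.29). The erythroid markers themselves differed between the diets, so this fit cannot fully separate them from diet. The part of these markers in the differences of the 10 genes was otherwise not tested.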

How the data were processed

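RNA was extracted from whole hearts of 20 mice, and mice were grouped by the diet in their labels. Per the study's methods, STAR was used for alignment to mm10, samtools for the removal of PCR duplicates and featureCounts 1.4.5-p1 for counting read pairs on exons, without strand. The authors deposited these counts without normalization. All 20 mice were kept, although the study left out an unnamed mouse of each group.

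Tests covered the 13590 genes that reached 1 CPM in 10 or more mice (9830 excluded) and were run in R 4.3.3 with edgeR 4.0.16 (TMM, quasi-likelihood test, diet as the only factor, Benjamini-Hochberg, adjusted p below 0.05). DESeq2 1.42.0 was an alternative. Log2 CPM used a prior count of 2. The gene length correction entered a loess curve (span 0.5, degree 1) of each mouse's values on log2 exonic length as offsets. Corrections for GC content covered 99.3% of tested genes. Ratios and relative values were compared by two-sided permutation tests (100000 resamples). The fit was tested on simulated data without a length trend, in which 200 of 13590 genes were changed. Of those changed by 0.3, 0.6 and 1 on the log2 scale, 48.2%, 85.7% and 98.6% were recovered. In the heart data far more genes differed and fold changes followed length, so these shares need not hold there.

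Totals lay between 6682177 and 8960688 read pairs per mouse, so a gene at 1 CPM rests on few read pairs. The 10 genes were set by name and not by their values, but they, the lists and the tests were chosen with earlier results of these data known. Beside the 10 genes, the text names up to 3 higher and 3 lower called genes of each pathway, endothelial and HIF list with the largest change, and the 2 genes most correlated with each of the 10; other marker lists are given as counts, and a gene that the rule selects is not reported here. *Pecam1* was named outside this rule, after its values were seen. Alternatives were other normalizations, filters, thresholds, covariates, the replicate number as a block and fits without 1 mouse of each group. Promoter windows came from RefSeq on GRCm38.p6.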

Additional observations from a re-analysis of the deposited data

How the results depend on the processing

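Most changes came with the gene length correction. Under it, 2 of the 10 genes were lower in place of 4, and signs turned for *Vegfa* (0.14), *Vegfb* (-0.047), *Kdr* (0.057), *Aplnr* (0.058), *Flt4* (0.030), *Ptprb* (0.064), *Cdh5* (0.014), *Kdm3a* (0.12) and *Hk2* (0.17). With it, log2 ratios were 0.46 for *Angpt2* over *Angpt1*, 0.19 for *Vegfa* over *Vegfb* and 0.085 for *Vegfa* over *Kdr*. Values relative to the markers were -0.10 for *Vegfa*, -0.29 for *Vegfb*, -0.28 for *Angpt2*, 0.017 for *Apln* and 0.14 for *Nos3*. In control mice, r of *Angpt1* with the marker mean was -0.77 and passed with the correction alone (permutation adjusted p = 0.0401), while rho did not (permutation adjusted p = 0.0751). In IDA mice, r of *Nos3* was 0.70 and no longer passed. The correction for length and GC content gave 1 gene higher and 2 lower, and turned *Vegfb* (-0.25), *Kdr* (0.11), *Angpt2* (0.030), *Aplnr* (0.095), *Ptprb* (0.060), *Kdm3a* (0.25) and *Hk2* (0.12). The cause was not tested.

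The replicate number as a block left 8912 of all genes called, against 9177, and 2 of the 10 genes higher and 4 lower, as without it. Whether the numbers pair the mice was not tested. Deviations of same-numbered mice correlated between -0.28 and 0.26, above 0.1 in 3 of 10 pairs, and 3 of 10 mice correlated best with their own number. The block with the gene length correction gave 2 genes lower and turned *Vegfa* (0.14), *Vegfb* (-0.050), *Kdr* (0.054), *Aplnr* (0.033), *Flt4* (0.033), *Ptprb* (0.062), *Cdh5* (0.013), *Kdm3a* (0.12) and *Hk2* (0.17).

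An endothelial marker covariate, itself different between the diets, left 5089 genes called, with 1 of the 10 genes higher and 2 lower, and turned *Vegfa* (0.013), *Angpt1* (0.059), *Apln* (-0.071), *Nos3* (-0.18), *Sema3f* (-0.44), *Angptl1* (0.11) and *Notch4* (-0.088). An erythroid marker covariate gave 1 gene higher and turned *Aplnr* (0.12). Thresholds of 0.01, on adjusted p or on p in both packages, also gave 1 gene higher. In the lower run of library numbers alone 1 gene was higher and *Apln* had -0.0076. In the higher run alone, 5906 genes were called, *Aplnr* had 0.32, *Notch4* -0.024 and *Kdr* over *Flt1* 0.52, and the values relative to the markers were 0.32 for *Apln*, 0.062 for *Aplnr* and 0.044 for *Nos3*. The cause was not tested, and these fits hold fewer mice.

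Fits without 1 mouse of each group called between 8572 and 9379 genes, 1 to 3 of the 10 genes as higher and 4 or 5 as lower, and *Aplnr* ranged from -0.18 to 0.053. *Apln* was called in 20 of the 100 fits, of which 17 left out IDA mouse 7 or 9, the lowest for it, and *Vegfa* in 3. Without a mouse of each group, the ratios ranged from 0.37 to 0.67 for *Angpt2* over *Angpt1*, from -0.32 to -0.22 for *Vegfa* over *Vegfb*, from 0.20 to 0.30 for *Kdr* over *Flt1*, from 0.11 to 0.36 for *Apln* over *Aplnr* and from 0.17 to 0.28 for *Vegfa* over *Kdr*. Other normalizations, filters, DESeq2 and a covariate for library size or number changed no sign among the 10 genes. The library size covariate ended the call on *Kdr* (-0.18, edgeR adjusted p = 0.0596), called *Apln* (0.35, adjusted p = 0.0165) and gave 0.068 for *Vegfb* and 0.32 for *Nos3*, both still called, and upper quartile normalization called *Apln* (edgeR adjusted p = 0.0495). *Angpt2* had as few as 65 read pairs in a mouse.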

Other observations

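Of 50 groups of 10 mice (the 10 genes, the 5 ratios and the 10 values relative to the endothelial markers, in each diet), none held a mouse beyond Dixon's critical gap, where chance alone sets about 1 in 20 apart. The spread between mice was wider in IDA hearts for 9 of the 10 genes when taken as the coefficient of variation. It went from 4.84% to 13.9% for *Tek*, from 8.49% to 14.9% for *Kdr* and from 11.6% to 22.2% for *Apln*, and was 7.97% and 7.63% for *Vegfa*. No test of the difference in spread was made. *Aplnr* in IDA mouse 5, at 73.1 CPM, and *Angpt1* in the same mouse, at 47.0 CPM, were the lowest of the 20 mice, while its *Flt1* (247 CPM) and *Nos3* (155 CPM) were the highest of the IDA group.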
